A study of Mus musculus with 6 samples.

Results

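The stem cell ageing marker genes described here are 10 genes whose transcripts have been reported as more abundant in blood stem cells of old mice: Clu, Aldh1a1, Nupr1, Mt1, Mt2, Gda, Alcam, Neo1, Gpr183 and Plscr2. Members were found by symbol: every probe set that the platform annotation assigns to 1 gene, and that gene a member, was taken. All 10 genes were found, through 26 of the 45037 probe sets that were not controls, and the probe set with the highest mean signal over the 6 arrays stands as the main one of its gene. The array named 18193 genes in all by this rule.

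The cells were LSK cells, bone marrow cells that lack lineage markers and carry Sca-1 and c-Kit, a sorted fraction that holds the blood stem cells together with multipotent progenitors. The 3 Ercc1-deficient arrays (-/d) came from mice with 1 knockout and 1 truncated allele of Ercc1, the gene of a subunit of a DNA repair endonuclease, and the allele pair is carried by the whole animal. The 3 Ercc1-proficient arrays were those of litter mates, of genotype +/+ in litters 1 and 2 and +/d in litter 3, so that a truncated allele was also present in 1 control. All mice were F1 animals of a C57BL/6 by FVB/n cross, aged 22 weeks in litter 1 and 20 weeks in litters 2 and 3, and it is not stated in the sources used here if an array held cells of 1 mouse or of several. The question put to these arrays is what changes in LSK transcripts when Ercc1 is impaired.

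With age, the stem cell pool of mouse bone marrow grows in number, loses reconstituting ability per cell and shifts its output towards myeloid and platelet lineages. Transcripts that mark this state belong to no single pathway. They include secreted and surface proteins (clusterin, ALCAM, neogenin), a receptor for oxysterols (Gpr183), enzymes of aldehyde and purine metabolism (Aldh1a1, Gda), metal-binding proteins (Mt1, Mt2), a stress-induced nuclear protein (Nupr1) and a phospholipid scramblase (Plscr2). The mice studied here were young adults by age, and Ercc1-deficient mice are used as a model of premature ageing.

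Mt1 and Mt2 are neighbours on chromosome 8, and their starts lie 6471 bases apart in the RefSeq table of build GRCm38.p6. Their promoters are shown because the levels of both genes followed the same order of litters. Metal response elements, bound by the zinc-sensing factor MTF-1, have the core TGCACNC or TGCGCNC. Both cores were searched on both strands of the 250 bases before each start. The Mt1 stretch is chr8:94178839-94179088 and the Mt2 stretch is chr8:94172368-94172617, both on the + strand and taken from RefSeq, with matches in capitals.
Mt1: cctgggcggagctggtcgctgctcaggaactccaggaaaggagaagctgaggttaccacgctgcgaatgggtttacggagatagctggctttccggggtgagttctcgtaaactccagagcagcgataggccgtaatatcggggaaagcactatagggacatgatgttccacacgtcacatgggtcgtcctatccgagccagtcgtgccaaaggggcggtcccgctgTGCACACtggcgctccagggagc
Mt2: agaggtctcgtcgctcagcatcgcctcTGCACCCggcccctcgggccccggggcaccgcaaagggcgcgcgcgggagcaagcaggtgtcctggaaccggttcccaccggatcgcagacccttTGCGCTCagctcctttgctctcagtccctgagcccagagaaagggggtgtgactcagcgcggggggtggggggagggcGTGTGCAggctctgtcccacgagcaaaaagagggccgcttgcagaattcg
In these windows Mt1 held 1 match, which starts 23 bases before the annotated start. Mt2 held 3, the last of them read on the other strand. No match overlapped another. The windows rest on the annotated starts and bases outside them were not searched, so the counts may miss elements of either gene. Of the 32851 promoters in the table, 21.4% held at least 1 match in the same window and 1.26% held at least 3. A promoter was in the table for 8 of the 10 genes, and in the other 6 of these genes, Aldh1a1, Nupr1, Gda, Alcam, Neo1 and Gpr183, no match was found in these windows. A match is a string of letters and shows no binding.

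Signals are MAS5 intensities on a linear scale with a floor at 30, below which no value lies, and 52.3% to 58.6% of the values of an array stood at that floor. Differences are deficient minus proficient on the scale of log2(signal + 30), which understates the change of weak genes. They were fitted in limma over 22519 probe sets with litter as a block, and a probe set passed at an adjusted p under 0.05. In that fit 188 probe sets passed (0.835%), 71 (0.315%) with higher and 117 (0.52%) with lower signals in deficient cells, but 152 higher and 148 lower when arrays were centred on their medians and 60 higher and 75 lower after quantile normalization. No probe set passed when litter was left out of the model or when any 1 litter was left out. The main probe set of Ercc1 itself had signals of 79.9, 34.5 and 44.9 on the deficient arrays of litters 1, 2 and 3, against 128, 244 and 176 in proficient cells. Of the gate's own markers, Kit, the c-Kit gene, was above the floor on all 6 arrays, with signals of 92.2 to 125 in deficient and 123 to 231 in proficient cells. Of 6 measured genes that mark or subdivide LSK cells 4 were lower and 2 higher in deficient cells. Flt3 and Procr fell. Kit and Cd34 were lower in all litters without passing (limma, adjusted p = 0.38 and 0.444). Cd48 was higher in all litters without passing (limma, adjusted p = 0.153), and Slamf1 was higher in litters 1 and 2 alone. Because these are bulk samples, fewer cells of a type and less RNA per cell cannot be told apart in any value given here.

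All 10 main probe sets passed the filter on mean signal, 5 of them with higher and 5 with lower values in deficient cells. The 5 lower ones include Neo1, Gpr183 and Plscr2, which had values at the floor. The 5 higher ones include Clu, whose probe sets did not share a direction. The rise of Gda, which encodes guanine deaminase, passed the test, and that of no other member did. Thus 1 of 10 genes was called. Of the 10885 genes tested 1.11% were called in either direction, 0.514% as higher and 0.597% as lower. The members and lists were chosen with earlier results of these data known, so their shares here and below are no test against all genes. The median log2 difference of the 10 genes was 0.10, against -0.02 over all genes tested. Gda and Mt1 had the higher signal on the deficient array of all 3 litters, and no member was lower in all 3. Those 2 of 10 genes compare with 30.5% of all genes tested that had the same direction in every litter. The deficient and proficient groups overlapped in all 10 genes, where 7.63% of genes tested had groups that did not overlap.

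**Figure D1:**
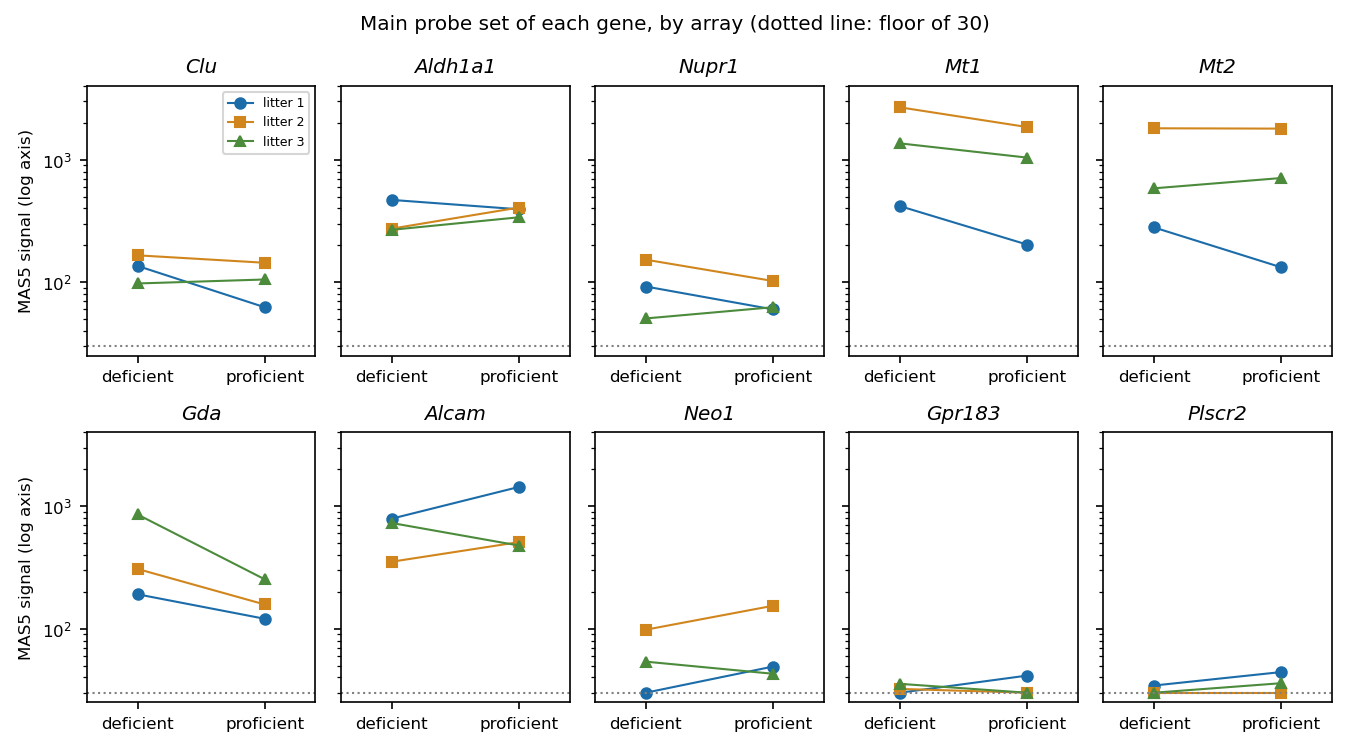
MAS5 signal (log axis) of the main probe set of each gene on each array, with a line joining litter mates, deficient at left and proficient at right; the dotted line is the floor of 30. Gda and Mt1 slope down from deficient to proficient in all 3 litters, Mt1 and Mt2 differ most between litters, and Gpr183 and Plscr2 lie near the floor.

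**Figure D2:**
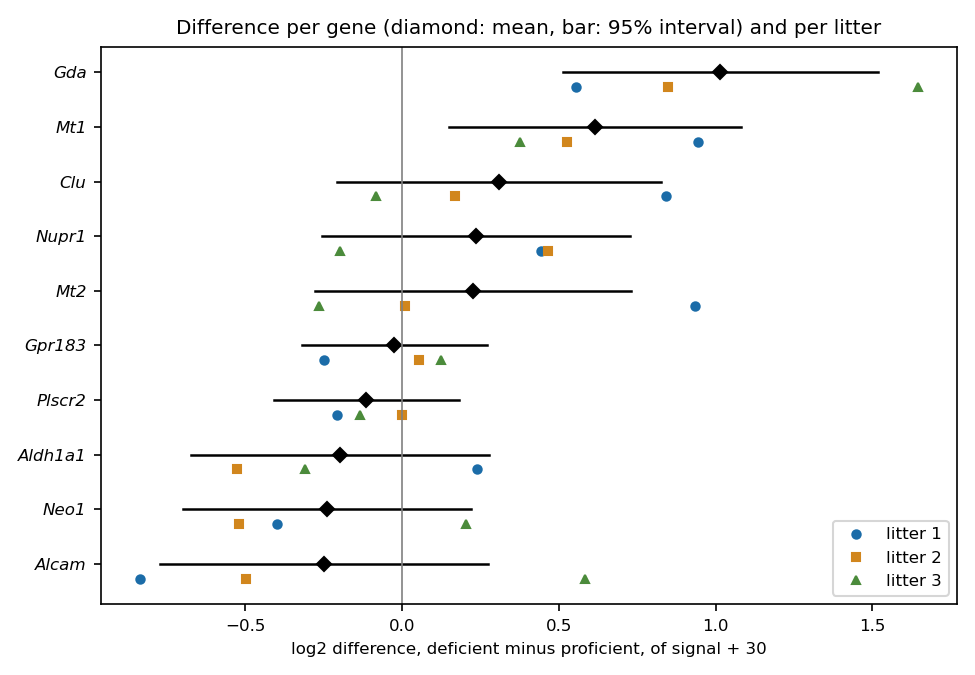
Log2 difference of signal + 30, deficient minus proficient, for the main probe set of each gene; diamonds are the means over 3 litters, bars the 95% intervals of the limma fit with litter as a block, and coloured points the single litters. The intervals of Gda (0.51 to 1.52) and Mt1 (0.15 to 1.08) lie above 0, and those of the other 8 genes include 0.

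Among the enzymes, Gda, which removes the amino group from guanine to give xanthine, had signals of 191, 308 and 857 on the deficient arrays of litters 1, 2 and 3, against 121, 158 and 253 in proficient cells. Within each litter the deficient array was the higher one, by 1.58, 1.95 and 3.38 times, while the deficient value of litter 1 lay below the proficient value of litter 3. The group means were 452 ± 356 for deficient and 177 ± 68.5 for proficient arrays (SD, n = 3 each). On the log2 scale they differed by 1.02, standard error 0.24 (limma, adjusted p = 0.0477). That p lies close to the threshold and was 0.0511 when probe sets were filtered on the mean of their log2 signals instead; it was 1.0 without litter in the model and 0.718, 0.687 and 0.646 without litters 1, 2 and 3. No probe set passed without litter in the model or with a litter left out, so the p-values of those fits do not single out Gda. Leaving out litter 3 also lowered the log2 difference of Gda to 0.70.

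The other Gda probe sets also had higher signals on the deficient arrays, with smaller differences, and did not pass. The second had signals of 268, 180 and 407 in deficient cells, against 157, 125 and 209 in proficient cells, higher in every litter (log2 difference 0.66, standard error 0.23; limma, adjusted p = 0.23). The third, close to the floor, had 41.9, 56.1 and 56.0 in deficient cells, against 30, 43.8 and 43.5 in proficient cells (log2 difference 0.24; limma, adjusted p = 0.643). With all Gda probe sets averaged, the log2 difference was 0.64 and the limma adjusted p 0.143.

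Granulocyte markers were higher beside Gda. Of 10 measured marker genes of that lineage 10 were higher in deficient cells and 6 rose, Camp, Ngp, S100a8, S100a9, Ctsg and Prtn3, which encode granule and calprotectin proteins; in this list 1 more, Mmp8, stood at the floor throughout. The summed signal of the list was 18204, 67088 and 109048 on the deficient arrays of litters 1, 2 and 3, against 3960, 22947 and 35746 in proficient cells. Litter 3 was highest and litter 1 lowest in both genotypes, the order also of the main Gda probe set, whereas the second Gda probe set was lowest in litter 2. The differences within litters had another order. In litters 1, 2 and 3 the median log2 difference of the granulocyte markers was 1.65, 1.24 and 1.74. That of the main Gda probe set was 0.55, 0.85 and 1.65. Of macrophage markers, C1qa, C1qc and Marco were at the floor on all arrays, and the summed signal of the 10 genes ranged from 513 to 810 in deficient and from 465 to 766 in proficient cells. All 5 tested were higher in deficient cells by the fit (median log2 difference 0.12), and none passed. The part of granulocyte transcripts in the difference of Gda was not tested. The hybridisation spike-ins bioB, bioC, bioD and cre, bacterial and phage transcripts added in fixed amount on such arrays, were 2.28, 1.09 and 1.13 times higher on the deficient array of litters 1, 2 and 3 (geometric mean of 18 probe sets). Their part in the difference of Gda was not tested.

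Aldh1a1, an aldehyde dehydrogenase that makes retinoic acid from retinal, had 1 probe set, with signals of 470, 274 and 268 in deficient cells and 394, 407 and 339 in proficient cells. The deficient array was the higher one in litter 1 and the lower one in litters 2 and 3. Its log2 difference was -0.20, with a 95% interval from -0.67 to 0.28 (limma, adjusted p = 0.77).

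The metallothioneins are small cysteine-rich proteins that bind zinc and copper and are induced by metals, glucocorticoids and oxidative stress. Mt1 had signals of 418, 2679 and 1360 on the deficient arrays of litters 1, 2 and 3, against 203, 1849 and 1041 in proficient cells, so it was 2.06, 1.45 and 1.31 times higher within litters. Its log2 difference was 0.62 (standard error 0.22), with a 95% interval from 0.15 to 1.08; the unadjusted p of 0.0119 did not survive adjustment (limma, adjusted p = 0.27). Unadjusted p-values under 0.05 were found for 2 of the 10 members, Gda and Mt1, and for 12.1% of all genes tested.

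Mt2 had signals of 280, 1806 and 584 in deficient cells and 132, 1795 and 709 in proficient cells. The deficient array was 2.12 times higher in litter 1, nearly equal to its litter mate in litter 2 and the lower one in litter 3. The log2 difference was 0.23, with a 95% interval from -0.28 to 0.73 (limma, adjusted p = 0.761), and -0.13 without litter 1. The spike-in ratio in litter 1, 2.28, stands beside ratios of 2.06, 2.12 and 2.18 in that litter for the main probe sets of Mt1, Mt2 and Clu. The ratios of the other members above the floor on all arrays were 1.58 for Gda, 1.54 for Nupr1, 1.19 for Aldh1a1 and 0.551 for Alcam, and that of the second Clu probe set was 1.15. The 3′ over 5′ signal ratio of Actb, a measure of RNA quality, was 31.4 on the deficient and 16.6 on the proficient array of litter 1. In litters 2 and 3 that ratio was 19.3 and 9.83 on deficient arrays, against 21.6 and 13.0 on proficient arrays. The part of these controls in the differences of the members was not tested. The Mt1 probe set used here is of a type that can match transcripts of closely related genes, so signals of both metallothioneins may be mixed in it. The other Mt1 probe set was at the floor on 5 of 6 arrays and reached 36.8 in deficient cells of litter 2.

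The metallothioneins had the largest differences between litters of the 10 members. In every member but Gpr183 the range of the litter means exceeded the mean difference between litter mates. A range of 3 means and a mean of differences are unlike measures, so their sizes are not strictly comparable. With the litter term tested by an F test in the same limma fit, Mt1 was higher in litter 2 than in litter 1 by 2.80 on the log2 scale and in litter 3 than in litter 1 by 1.92 (adjusted p = 1.26e-06). For Mt2 these differences were 3.03 and 1.59 (limma, adjusted p = 1.57e-06). Gda, Alcam and Neo1 also differed between litters, with adjusted p-values of 0.00223, 0.0101 and 0.00482 in limma. These 5 of 10 members compare with 30.1% of all genes tested. Litter 1 was also the older one, and age and litter cannot be told apart.

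**Figure D3:**
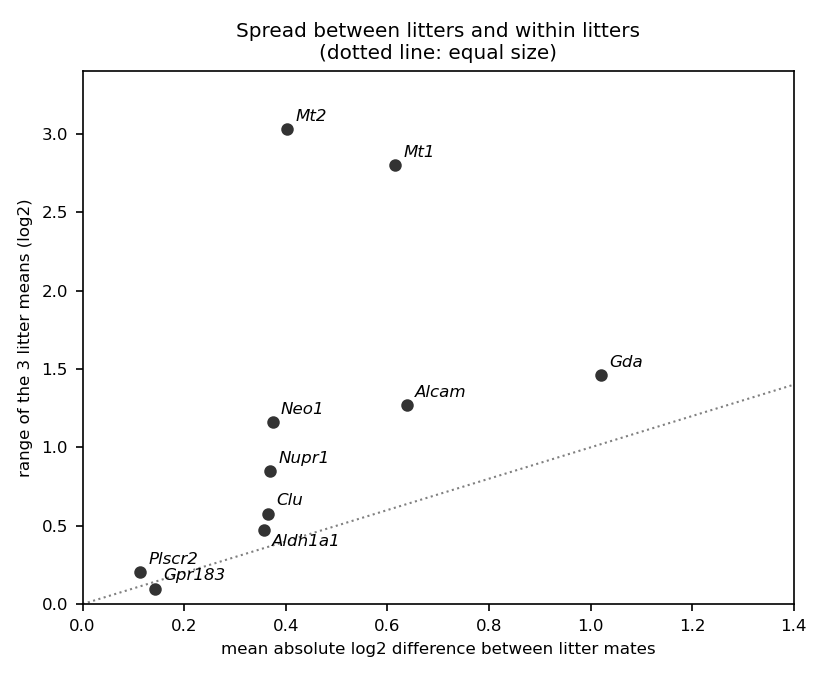
Range of the 3 litter means (log2 of signal + 30) against the mean absolute log2 difference between litter mates, one point per gene, with a dotted line where both are equal. All genes but Gpr183 lie above the line. Mt1 and Mt2 have litter ranges of 2.80 and 3.03 and within-litter differences of 0.62 and 0.40, and Gda has the largest within-litter difference of the 10 genes, 1.02.

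Nupr1, a chromatin-associated protein induced by amino acid shortage and endoplasmic reticulum stress, had signals of 92.2, 153 and 50.6 in deficient cells, against 60.0, 102 and 62.5 in proficient cells. The deficient array was 1.54 and 1.49 times higher in litters 1 and 2 and the lower one in litter 3. Its log2 difference was 0.24, with a 95% interval from -0.26 to 0.73 (limma, adjusted p = 0.75). The second Nupr1 probe set gave litter differences of 0.03, 0.56 and -0.27 on the log2 scale.

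Clu encodes clusterin, a secreted chaperone that also travels in lipoprotein particles. Its main probe set had signals of 136, 166 and 97.6 in deficient cells, against 62.5, 144 and 105 in proficient cells, and a log2 difference of 0.31 (95% interval -0.21 to 0.83; limma, adjusted p = 0.683). The Clu probe sets did not share a direction: the second had 62.3, 94.3 and 61.6 in deficient cells and 54.1, 118 and 98.3 in proficient cells, a log2 difference of -0.20. The third was at or near the floor, with a log2 difference of -0.23, and the fourth was above the floor in litter 3 alone. With all Clu probe sets averaged the log2 difference was -0.03, so no direction can be given for Clu.

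Alcam encodes an adhesion molecule of the immunoglobulin family that binds CD6 and itself. The main probe set had signals of 791, 352 and 730 on the deficient arrays of litters 1, 2 and 3, against 1436, 509 and 478 in proficient cells. Deficient cells were lower in litters 1 and 2 and higher in litter 3, so the log2 difference of -0.25 (95% interval -0.77 to 0.27; limma, adjusted p = 0.75) averages over opposite values, and it was 0.04 without litter 1. Of the 5 Alcam probe sets, 4 had this pattern of lower values in litters 1 and 2 and higher ones in litter 3. The fifth, near the floor, was higher in litter 2 and lower in litters 1 and 3.

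Neo1 encodes neogenin, a receptor for netrins and repulsive guidance molecules. Its main probe set had signals of 30, 98.1 and 53.8 in deficient cells, against 49.1, 154 and 42.8 in proficient cells, with a log2 difference of -0.24 (95% interval -0.70 to 0.22; limma, adjusted p = 0.727). Another 2 Neo1 probe sets stood at the floor on every deficient array. In proficient cells of litters 1, 2 and 3 the first had 79.9, 30 and 30 and the second 50.2, 39.5 and 30, so values above the floor came from litter 1 in the first and litters 1 and 2 in the second. Neither passed (limma, adjusted p = 0.552 and 0.631), and the remaining 2 never left the floor. The main probe sets of Neo1 and Clu are of a type that can also match other transcripts.

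Gpr183, a receptor that guides immune cells along oxysterol gradients, and Plscr2, of the scramblase family that moves phospholipids across membranes, were close to the limit of measurement. Gpr183 had signals of 30, 32.2 and 35.4 in deficient cells, against 41.4, 30 and 30 in proficient cells, and its log2 difference of -0.02 turned to 0.04 with median centring and 0.02 with quantile normalization. Its other probe set never left the floor. Plscr2 had signals of 34.3, 30 and 30 in deficient cells and 44.2, 30 and 35.9 in proficient cells, with a log2 difference of -0.11 (limma, adjusted p = 0.785). At these signals a difference in either gene was not detectable.

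**Figure D4:**
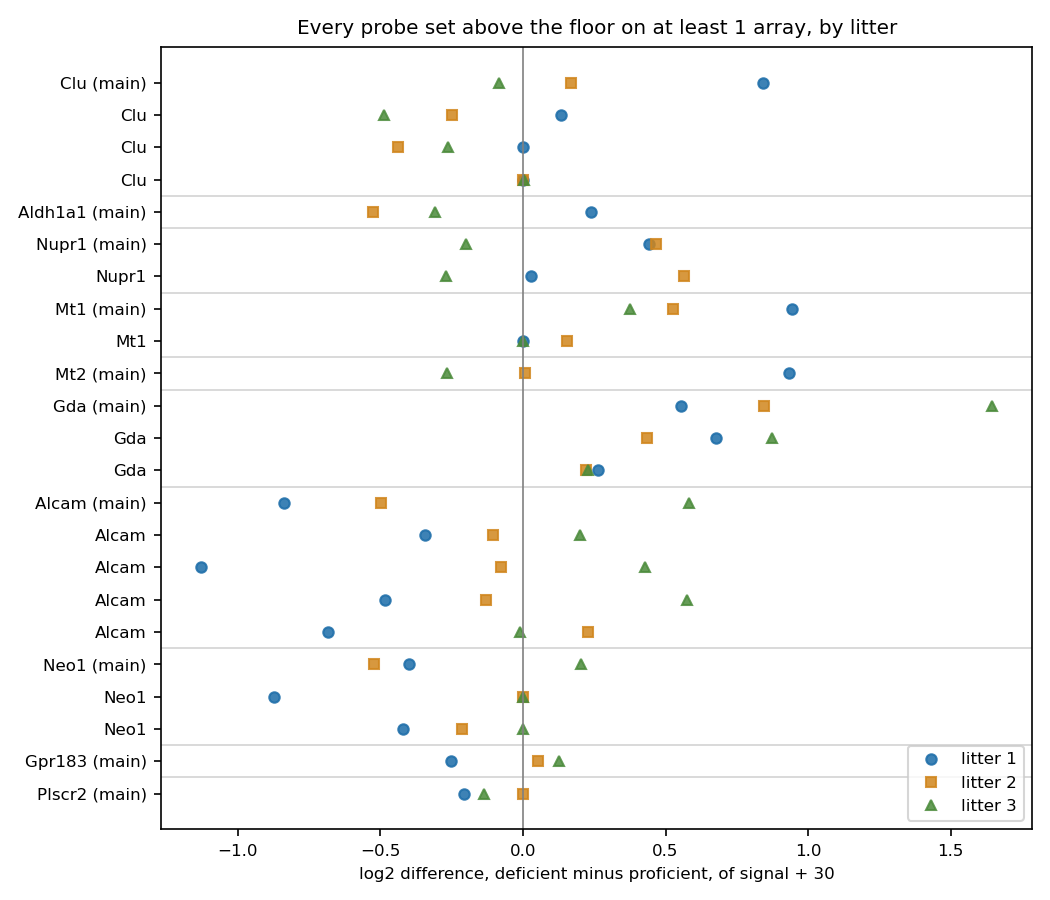
Log2 difference of signal + 30, deficient minus proficient, in each litter for every probe set of the 10 genes that was above the floor on at least 1 array; the main probe set of a gene stands first in its block. All 3 Gda probe sets lie right of 0 in all litters, the Clu probe sets fall on both sides, and 4 of 5 Alcam probe sets have litter 3 at right and the other litters at left.

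Other genes described as higher in aged mouse stem cells had lower values in deficient cells in most cases. Of 27 genes listed, 26 had a probe set and 22 were tested. Of these, 6 were higher and 16 lower, against 5094 higher and 5791 lower of the 10885 genes tested. Both directions include genes near the floor. The median log2 difference was -0.21 against -0.02 over all genes tested. Selp, the adhesion molecule P-selectin, rose: it had signals of 132, 310 and 166 on the deficient arrays of litters 1, 2 and 3, against 49.1, 138 and 43.1 in proficient cells (log2 difference 1.16, standard error 0.24; limma, adjusted p = 0.0163). The Selp probe set is of a type that can also match other transcripts, and only the main probe set of each listed gene was examined. None of the listed genes fell at the threshold. An unadjusted p under 0.05 in limma was found for 9 of the 22, 1 higher and 8 lower, against 12.1% of all genes tested. A few more are given for their use as stem cell markers, chosen after their values were seen. Vwf, von Willebrand factor, had 65.0, 198 and 47.5 in deficient cells against 104, 224 and 99.3 in proficient cells (limma, adjusted p = 0.479). Itgb3, an integrin subunit, had 55.8, 55.1 and 45.3 in deficient cells against 94.7, 120 and 89.8 in proficient cells (limma, adjusted p = 0.202). Slamf1, the sorting marker CD150, had 166, 230 and 66.3 in deficient cells against 63.6, 148 and 108 in proficient cells (limma, adjusted p = 0.657).

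Platelet lineage genes, which overlap with the ageing signature, were measured beside these. Of 8 tested megakaryocyte markers 3 were higher and 5 lower in deficient cells, none passed, and the summed signal of the 9 measured ranged from 1348 to 2705 in deficient and from 656 to 2177 in proficient cells. Pf4, platelet factor 4, was the marker with the same direction in all litters, with 716, 2054 and 888 in deficient cells against 193, 1203 and 874 in proficient cells (limma, adjusted p = 0.174). Their part in the difference of Selp was not tested.

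The genes around each member were examined as lists of known partners. Their counts of higher and lower genes stand against 5094 higher and 5791 lower of the 10885 genes tested. Genes near the floor are included in these counts. Of 19 tested genes of metal handling other than Mt1 and Mt2, 5 were higher and 14 lower (median log2 difference -0.11) and none passed, nor had any an unadjusted p under 0.05 in limma. The zinc transporters Slc30a4 and Slc39a7 had the largest differences of 1 sign in all litters, -0.39 and -0.33. Of 19 genes of aldehyde and retinoid handling tested, 6 were higher and 13 lower (median -0.18), again with none passing and none at an unadjusted p under 0.05 in limma; Aldh7a1 and Aldh18a1 led with -0.38 and -0.34.

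In the integrated stress response around Nupr1, 14 genes were higher and 12 lower (median 0.05), none passed in limma, and 4 of the 26 had an unadjusted p under 0.05, a share to be read, as for the lists that follow, against the 12.1% of all genes tested. Its leading genes were Vldlr, a lipoprotein receptor, at -0.77, and Ppp1r15a, a phosphatase subunit that ends the response, at -0.69. In purine breakdown and salvage around Gda 6 were higher and 10 lower (median -0.07) and none passed or had an unadjusted p under 0.05 in limma. Samhd1, which degrades deoxynucleotides, led at -0.44 with Dck, deoxycytidine kinase, at 0.39.

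Partners of neogenin and ALCAM were higher in 5 and lower in 4 of 9 tested genes (median 0.01), with none passing and 1 at an unadjusted p under 0.05 in limma. Bmpr2 and Bmpr1a, receptors for bone morphogenetic proteins, led at -0.62 and -0.24. Most of the 9 stood at the floor on at least 1 array, which limits these counts. Bmpr1a was at 30 on every deficient array, against 40.5, 46.1 and 36.7 in proficient cells of litters 1, 2 and 3. The 4 tested genes of the oxysterol list around Gpr183, which also holds sterol exporters, were all lower by the fit (median -0.31) and none passed. Not every one of these genes was lower in each litter. Of these, 1 had an unadjusted p under 0.05 in limma. Cyp7b1, an oxysterol hydroxylase, stood at -0.45 and the sterol exporter Abcg1 at -0.17. Signals of Cyp7b1 on the deficient arrays of litters 1, 2 and 3 were 30, 37.6 and 30, at or near the floor.

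In the list of scramblases and flippases 5 genes were higher and 8 lower (median -0.18). Atp8b4, a phospholipid flippase gene, rose, with signals of 628, 440 and 722 on the deficient arrays of litters 1, 2 and 3 against 224, 246 and 346 in proficient cells (log2 difference 1.05, standard error 0.22; limma, adjusted p = 0.0222). The groups did not overlap in Atp8b4, as in 7.63% of all genes tested. Among clusterin receptors and secreted chaperones 5 were higher and 3 lower (median 0.07), and Apoe, the apolipoprotein E gene, fell, with 30, 81.2 and 42.8 in deficient cells against 63.5, 223 and 179 in proficient cells (log2 difference -1.12, standard error 0.24; limma, adjusted p = 0.0249). The groups overlapped in Selp and Apoe. As for Gda, the calls of Selp, Atp8b4 and Apoe were made with all 3 litters. None remained when a litter was left out, but no probe set on the array passed in those fits, so this does not single out these genes.

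**Figure D5:**
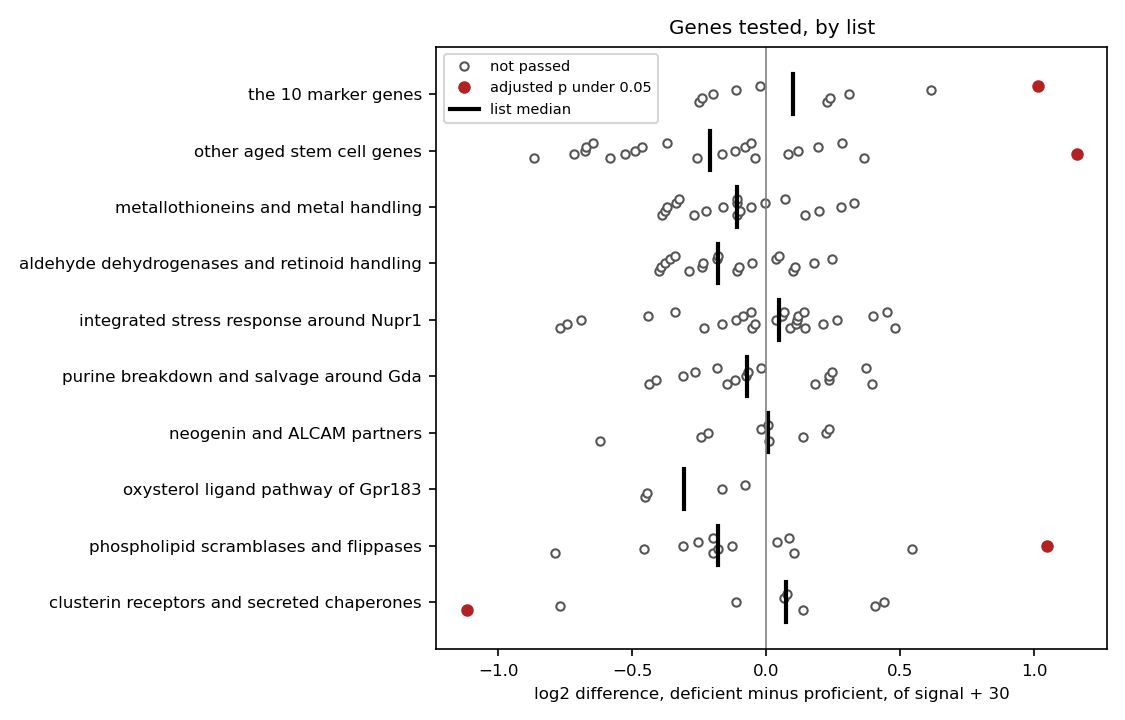
Log2 difference of signal + 30, deficient minus proficient, of each tested gene by list; filled points passed at an adjusted p under 0.05 (limma with litter as a block) and the black bar is the list median. Gda, Selp and Atp8b4 are the filled points at right and Apoe the one at left, and the median of the 10 marker genes is 0.10 while that of the other aged stem cell genes is -0.21.

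Likeness of pattern was measured as the root mean square difference between mean-centred log2 signals over the 6 arrays, among the other 10884 genes tested. Gda was nearest to Anxa1, Clec5a and Dstn, at 0.117, 0.163 and 0.164. Mt1 was nearest to Tmem256, Nme1 and Rnaseh2c, at 0.0965, 0.124 and 0.155, and Mt2 ranked 60 at 0.33. Mt2 was nearest to Ndufa3, Asns and Serf2, at 0.188, 0.218 and 0.238, and Mt1 ranked 41 for it. The nearest gene was Snrnp40 for Clu (0.0575), Spred2 for Aldh1a1 (0.05), Tmem98 for Nupr1 (0.0773) and Mtf1 for Alcam (0.0829). These ranks describe 6 arrays and carry no test.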

How the data were processed

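Amplified RNA (2 rounds) of sorted LSK cells was measured on Affymetrix mouse expression arrays, per the labels' protocols. The authors deposited MAS5 signal intensity per probe set, per the submitters' processing notes. The floor at 30 was read from the values, and the sources used here do not say how it was set. The 64 control probe sets were left out. Gene names came from the 2016 annotation of the platform, in which 34945 had 1 gene symbol, 932 several and 9160 none; of the symbols 34741 matched RefSeq and 0 changed.

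Signals were transformed as log2(signal + 30), and the 22519 probe sets with a mean signal at or above the median were tested in limma 3.58.1 (R 4.3.3; lmFit, eBayes with a variance trend, Benjamini-Hochberg adjustment at 0.05). Litter was a block because the labels name same-numbered arrays as litter mates. Their deviations from the group means correlated with r = 0.77, 0.67 and 0.46. The fit on simulated data recovered 71% of 2-fold and 100% of 4-fold changes placed in 200 brighter probe sets among 22519, with 15 false calls. Without the block 0% and 3% were recovered. The simulated arrays carried the litter effects and residual spread of the blocked fit, so they cannot show that blocking is right. Recovery of changes in probe sets near the floor was not simulated. With 3 arrays a group, their number limits precision, and the p-values cover the spread among these samples, which may be technical. An exact permutation test of 3 arrays against 3 cannot go below p = 0.1 and was not used.

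Genes named in the text were the 10 members with all probe sets and Ercc1. Of each partner list, the genes that passed were named, or where none did at most 2 with the largest difference of 1 sign in all litters, besides the marker genes of cell types; Vwf, Itgb3 and Slamf1 fall outside this rule and were chosen after their values were seen. The members and lists were chosen with earlier results of these data known. The alternatives were other normalizations, pseudocounts, filters and variance models, the fit without the block, all probe sets of a gene averaged, and each litter left out.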

Additional observations from a re-analysis of the deposited data

Results flagged for a closer look

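Among the main probe sets, 2 had litter differences of opposite sign at 22 weeks of age (litter 1) and at 20 weeks (litters 2 and 3). For Aldh1a1 the log2 difference, deficient minus proficient, was 0.24 in litter 1, against -0.53 and -0.31 in litters 2 and 3. For Gpr183 it was -0.25 in litter 1, against 0.05 and 0.13, with signals at or near the floor on all arrays. With 1 litter at the older age, the difference between ages was not tested.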

How the results depend on the processing

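The count of 188 probe sets called (71 higher, 117 lower) was 300 with median centring (152 higher), 114 with no variance trend (65 lower), 75 lower with quantile normalization, and 0 in either direction without a filter, without the replicate block or without any 1 litter (range 0 to 0). The count of 1 member called was 0 with no filter, without the replicate block, with no variance trend, a pseudocount of 100, quantile normalization, the filter on mean log2 signals (chosen after seeing the data) and without each litter (0 to 0). The log2 difference of Gda kept its sign in all of these and lay between 0.70 and 1.25 with a litter left out; its limma adjusted p was 0.942 without a filter, 0.0948 with no variance trend, 0.061 with a pseudocount of 100 and 0.0702 with quantile normalization. It passed with a pseudocount of 0 (0.035), median centring (0.00566) and the stricter filter (0.0213). The call of 1 gene among the other aged stem cell genes, of 1 scramblase or flippase and of 1 clusterin partner was 0 without a filter, without the block and without each litter (0 to 0), and the clusterin partner's also with quantile normalization. Signs turned for Clu with all probe sets averaged (-0.031), Mt2 without litter 1, Alcam without litter 1, and Gpr183 with median centring (0.041), quantile normalization (0.018) and without litter 1, and the cause was not tested. With 1 litter left out the log2 differences lay between -0.13 and 0.47 for Mt2, -0.67 and 0.043 for Alcam, and -0.099 and 0.089 for Gpr183. The floor limits what can be seen in Gpr183, Plscr2 and Neo1.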
